A study of Homo sapiens with 16 samples.

Results

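The genes described here are 35 genes of the endoplasmic reticulum (ER) stress and amino acid responses, grouped by their known roles and read in OVCAR3 cells given 1,25-dihydroxyvitamin D3. Of the 35, 34 had a U133A probe set that the platform annotation assigned to 1 gene, and for a gene with several such probe sets the one with the highest mean signal over the 12 arrays was used. MARS1, methionyl-tRNA synthetase, had 3 probe sets, each annotated with a second gene as well, and was not measured here. DNAJC3, an ER co-chaperone, lay below the filter on low signals with a mean of 31.4. The remaining 33 genes were tested among 7178 genes, out of 11963 with a probe set of their own.

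Both responses meet at the translation factor eIF2. PERK (EIF2AK3) at the ER membrane and GCN2 in the cytosol phosphorylate it, which lowers protein synthesis while the transcription factor ATF4 is translated better. ATF4 raises genes for serine, glycine and asparagine synthesis, amino acid uptake and tRNA charging. IRE1 (ERN1) with XBP1, and ATF6, carry the other branches of the unfolded protein response, whose targets include ER chaperones, disulfide isomerases and genes of ER-associated degradation.

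OVCAR3 is an established human ovarian carcinoma line, here a single line grown in culture. The groups were cells given ethanol, the vehicle, and cells given 1,25(OH)2D3, the active hormone made from vitamin D, for 8, 24 or 72 h at a dose of 0.1 pM as the labels state it. Treatment was started at staggered times so that harvest was common, and every culture had the same ethanol exposure. Each group had 3 biological replicates on U133A arrays, from 3 independent experiments, and 1 sample per time on U95 arrays. All 10 epithelial carcinoma markers were above the filter, with vehicle means of 509 to 13463. Of markers of other cells, 3 of 8 fibroblast, 1 of 6 leukocyte and 1 of 6 endothelial genes were above it, and 0 of these 5 passed limma's test at any time. Of the epithelial markers, 1 was higher at 8 h (WT1), 2 higher (WT1, CDH1) and 2 lower (KRT18, PAX8) at 24 h, and 3 higher (WT1, CDH1, KRT7) and 1 lower (KRT18) at 72 h, and their part in the results below was not tested. The median signal was 168 to 196 across the 12 arrays, and pairs of arrays correlated at 0.958 to 0.976 on the log2 scale. CYP24A1, the vitamin D 24-hydroxylase and a direct target of the hormone's receptor, was higher by 5.65, 5.86 and 5.89 on the log2 scale at 8, 24 and 72 h. GADD45A, which the study used to check the cells' response before arraying, was higher by 1.49, 1.91 and 2.02, and VDR, the receptor, differed by 0.21, 0.19 and -0.28 and did not pass.

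The promoters of some members hold the short elements through which these pathways are read, and 5 that hold a match are shown, each from a different role: asparagine synthetase (ASNS), the ATF4 partner ATF3, alanyl-tRNA synthetase (AARS1), the chaperone BiP (HSPA5) and the degradation factor HERPUD1. No stress sensor, transporter or disulfide isomerase is among them. The windows are RefSeq's on GRCh38.p14, 250 bases before to 50 bases after a gene start: chr7:97872359-97872658, minus strand, for ASNS, chr1:212565157-212565456, plus strand, for ATF3, chr16:70289457-70289756, minus strand, for AARS1, chr9:125241294-125241593, minus strand, for HSPA5, and chr16:56931892-56932191, plus strand, for HERPUD1. ASNS and ATF3 each have another annotated start, whose window holds no match. Each is printed 5′ to 3′ on the gene's strand. Capitals mark matches on either strand to the amino acid response core TGATGNAA in the first 3 and in HERPUD1, to the ER stress response element (CCAAT and CCACG with 9 bases between them) in HSPA5, and to the second ER stress response element (ATTGG and CCACG with 1 base between them) in HERPUD1. No match to one motif overlapped a match to another in the members' windows.
ASNS: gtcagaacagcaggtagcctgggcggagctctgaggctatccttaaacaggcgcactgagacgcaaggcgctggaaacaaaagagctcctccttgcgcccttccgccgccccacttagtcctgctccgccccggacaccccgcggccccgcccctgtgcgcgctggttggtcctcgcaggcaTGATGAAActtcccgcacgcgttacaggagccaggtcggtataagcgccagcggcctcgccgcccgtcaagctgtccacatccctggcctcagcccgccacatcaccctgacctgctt
ATF3: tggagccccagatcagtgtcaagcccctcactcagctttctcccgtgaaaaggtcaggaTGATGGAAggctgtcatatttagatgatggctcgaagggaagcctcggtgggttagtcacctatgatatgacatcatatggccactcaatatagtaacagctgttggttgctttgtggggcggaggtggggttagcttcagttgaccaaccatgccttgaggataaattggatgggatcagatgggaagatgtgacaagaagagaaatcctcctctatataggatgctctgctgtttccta
AARS1: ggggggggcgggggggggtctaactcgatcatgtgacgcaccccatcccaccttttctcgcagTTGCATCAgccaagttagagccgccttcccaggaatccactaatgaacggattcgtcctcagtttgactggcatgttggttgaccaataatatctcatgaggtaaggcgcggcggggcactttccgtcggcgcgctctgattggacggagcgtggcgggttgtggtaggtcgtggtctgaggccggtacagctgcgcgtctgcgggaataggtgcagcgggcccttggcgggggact
HSPA5: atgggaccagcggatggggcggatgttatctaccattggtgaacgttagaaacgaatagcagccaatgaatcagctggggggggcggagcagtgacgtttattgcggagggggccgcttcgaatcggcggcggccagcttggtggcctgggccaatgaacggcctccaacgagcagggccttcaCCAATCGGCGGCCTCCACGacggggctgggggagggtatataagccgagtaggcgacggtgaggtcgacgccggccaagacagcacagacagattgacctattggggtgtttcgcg
HERPUD1: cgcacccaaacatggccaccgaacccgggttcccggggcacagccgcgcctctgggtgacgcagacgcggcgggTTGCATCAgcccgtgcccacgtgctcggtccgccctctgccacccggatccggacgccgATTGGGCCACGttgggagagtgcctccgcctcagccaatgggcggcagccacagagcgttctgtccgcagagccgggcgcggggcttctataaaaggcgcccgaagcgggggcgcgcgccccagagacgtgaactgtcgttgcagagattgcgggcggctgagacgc

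The core lies 68 to 61 bases before the start in ASNS and 191 to 184 before it in ATF3. The ER stress element lies 66 to 48 bases before the start in HSPA5. Windows were found for 31 of the 35 genes. TGATGNAA occurred for 7 of the 31, or 22.6%, against 4.46% of the 27305 genes with a window and 3.62% of 35116 windows. The ER stress response element occurred for 6 of the 31, or 19.4%, against 0.0916% of genes and 0.0769% of windows, and the second element for 1, HERPUD1, against 0.0696% of genes and 0.0541% of windows. The 7 genes with the core were ATF3, ASNS, SLC3A2, AARS1, GARS1, MARS1 and HERPUD1, and the 6 with the ER stress element were XBP1, HSPA5, HSP90B1, CALR, CANX and PDIA6. The 2 sets shared no gene. These are matches of letters and are not evidence of binding. The members were listed as genes of these responses, so their higher shares are no test of a link to either response.

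At 8 h none of the 33 genes passed, at 24 h 2 were higher, and at 72 h 2 were higher and 3 lower, all by limma's moderated test with Benjamini-Hochberg adjustment over the 7178 genes and a threshold of 0.05. The genes were ASNS and PSPH at 24 h, ATF3 and PSPH higher at 72 h, and EIF2AK3, PSAT1 and SLC7A5 lower at 72 h. Among all genes tested, 0.724% were higher and 0.0557% lower at 8 h, 2.47% higher and 1.62% lower at 24 h, and 3.86% higher and 2.98% lower at 72 h. The numbers lower among all genes, 116 at 24 h and 214 at 72 h, were 63 to 74 and 117 to 141 with any vehicle array left out. The members' shares were 6.06% higher at 24 h, and 6.06% higher and 9.09% lower at 72 h, which are 2 or 3 genes each. At an unadjusted p under 0.05, ATF3 was higher and PSAT1 lower at 8 h, 6.06% of the members against 6.38% of all genes. The corresponding shares were 18.2% against 14.4% at 24 h and 30.3% against 20.1% at 72 h. With the F test for any time, ASNS and PSPH passed, 6.06% of the members against 5.21% of all genes. The median log2 change of the 33 genes was -0.03, 0.06 and 0.03 at 8, 24 and 72 h, against -0.0040, -0.016 and -0.014 for all genes.

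All 3 treated arrays lay above all 3 vehicle arrays for 1 member at 8 h, 4 at 24 h and 6 at 72 h, against 6.52%, 9.35% and 11.7% of all genes. They lay below for 1, 2 and 6 members, against 6.95%, 11.2% and 12.7% of all genes. At 72 h the members' share was 18.2% in each direction. The 6 higher genes at 72 h were ATF3, PHGDH, PSPH, ASNS, CANX and PDIA4, and the 6 lower were EIF2AK3, XBP1, PSAT1, MTHFD2, SLC7A5 and SEL1L. The ATF4 amino acid genes and the ER genes each had members on both sides, as did all genes tested (11.7% above and 12.7% below). The map of log2 changes shows every tested gene by role.

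**Figure D1:**
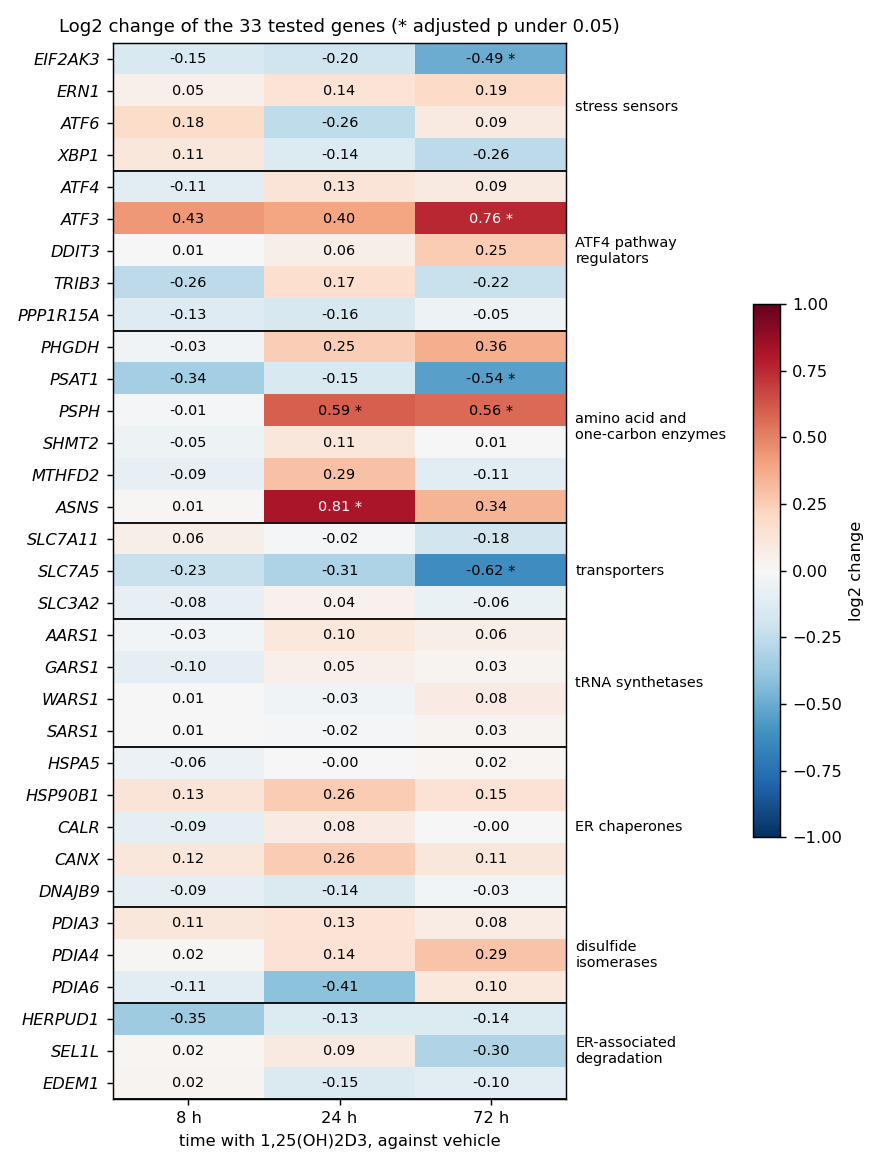
Log2 change against vehicle on the log2(signal + 15.8) scale for the 33 tested genes (rows, grouped by role) at 8, 24 and 72 h (columns), with an asterisk where limma's adjusted p was under 0.05. The strongest colours are ASNS at 24 h (0.81), ATF3 at 72 h (0.76) and SLC7A5 at 72 h (-0.62), and the synthetase and chaperone rows stay pale.

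Among the 6 enzymes of serine, glycine, one-carbon and asparagine metabolism, ASNS and PSPH rose at 24 h, PSPH was still higher at 72 h, and PSAT1 was lower at 72 h. The other 3, PHGDH, SHMT2 and MTHFD2, did not pass against vehicle at any time in the main fit, which had no term for the array number. The median log2 change of the 6 was -0.04 at 8 h, 0.27 at 24 h and 0.17 at 72 h. A signal can be compared between arrays for 1 gene, not between genes, and in a bulk culture more cells that express a gene and more RNA per cell cannot be told apart. RefSeq lists 5 pseudogenes of ASNS, 4 of PSAT1, 7 of MTHFD2, 1 of PSPH and 2 of SLC7A5, and whether the probes read their RNA was not tested.

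ASNS makes asparagine from aspartate and glutamine and is a standard ATF4 target. Its signal was 971, 737 and 966 in vehicle, 981.5, 714 and 1014 at 8 h, 1679, 1265 and 1809 at 24 h, and 1213, 1025 and 1149 at 72 h. Every 24 h array lay above every vehicle, 8 h and 72 h array, and the 72 h arrays also lay above the vehicle arrays. At 24 h the mean was 1584 ± 284, against 892 ± 134 in vehicle (SD, n = 3 each), a 1.76-fold difference with a 95% interval of 1.39 to 2.22. On the log2 scale this was 0.81 ± 0.16 (SE) with limma's adjusted p = 0.0063. At 8 h the difference was 0.01, and at 72 h it was 0.34 with limma's adjusted p = 0.24. With a term for the array number added to the fit, the 72 h difference passed. Under all 22 alternatives tried the 24 h call held, with a log2 change of 0.68 to 0.97.

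PSPH removes phosphate in the last step of serine synthesis. Its signal was 225, 191 and 236 in vehicle, 227, 213 and 204 at 8 h, 316, 297 and 403 at 24 h, and 344, 305 and 336 at 72 h. The arrays of 24 and 72 h lay above all 6 vehicle and 8 h arrays. The log2 change was 0.59 ± 0.16 (SE, limma adjusted p = 0.043) at 24 h and 0.56 ± 0.16 (SE, limma adjusted p = 0.039) at 72 h, and -0.01 at 8 h. Its other probe set, below the filter, gave 0.43 and 0.41 at 24 and 72 h. Both calls were close to the threshold: the 24 h call was kept only without 24 h array 2, 72 h array 1 or 72 h array 2 when each of the 12 arrays was left out in turn (highest adjusted p 0.19), and the 72 h call only without 8 h array 1, 24 h array 2 or 24 h array 3 (highest 0.14).

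PSAT1, the aminotransferase of the middle step of serine synthesis, went the other way. Its signal was 3105, 2560 and 3327 in vehicle, 2520, 1927 and 2667 at 8 h, 2724, 2401 and 2954 at 24 h, and 2229, 1937 and 1979 at 72 h. All 72 h arrays were below all vehicle arrays, while the 8 h and 24 h arrays overlapped with vehicle. At 72 h the mean was 2048 ± 158, against 2997 ± 395 in vehicle (SD, n = 3 each), with a log2 change of -0.54 ± 0.13 (SE, limma adjusted p = 0.019). The changes at 8 and 24 h were -0.34 and -0.15. Same-number differences from vehicle were -0.41 to -0.30 at 8 h and -0.19 to -0.092 at 24 h, positive in 0 of 3 at either time. The call at 72 h was lost with median centring of the arrays and without vehicle array 1 or 3 or 72 h array 2 or 3 (highest adjusted p 0.099).

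PHGDH, which commits a glycolytic intermediate to serine synthesis, had signals of 3198, 2545 and 3204 in vehicle, 3254, 2555 and 2934 at 8 h, 3833.5, 3032 and 3759 at 24 h, and 4367.5, 3471 and 3675 at 72 h. Its 72 h arrays all lay above its vehicle arrays, and the log2 change of 0.36 did not pass in the main fit (limma adjusted p = 0.11). With a term for the array number added, this change passed. The 3 enzymes of the serine pathway thus had no common direction at 72 h: PHGDH 0.36, PSAT1 -0.54 and PSPH 0.56.

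MTHFD2, a mitochondrial folate enzyme that uses the carbon serine gives up, had signals of 2575, 2455 and 2698 in vehicle, 2219, 2341 and 2748 at 8 h, 3142, 2838 and 3529 at 24 h, and 2366, 2375 and 2417 at 72 h. The 24 h arrays were above all the others, and the 72 h arrays were just below the vehicle arrays. Its log2 change was 0.29 at 24 h (limma adjusted p = 0.14) and -0.11 at 72 h. SHMT2, the mitochondrial serine hydroxymethyltransferase, differed by -0.05, 0.11 and 0.01, and its groups overlapped at each time.

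**Figure D2:**
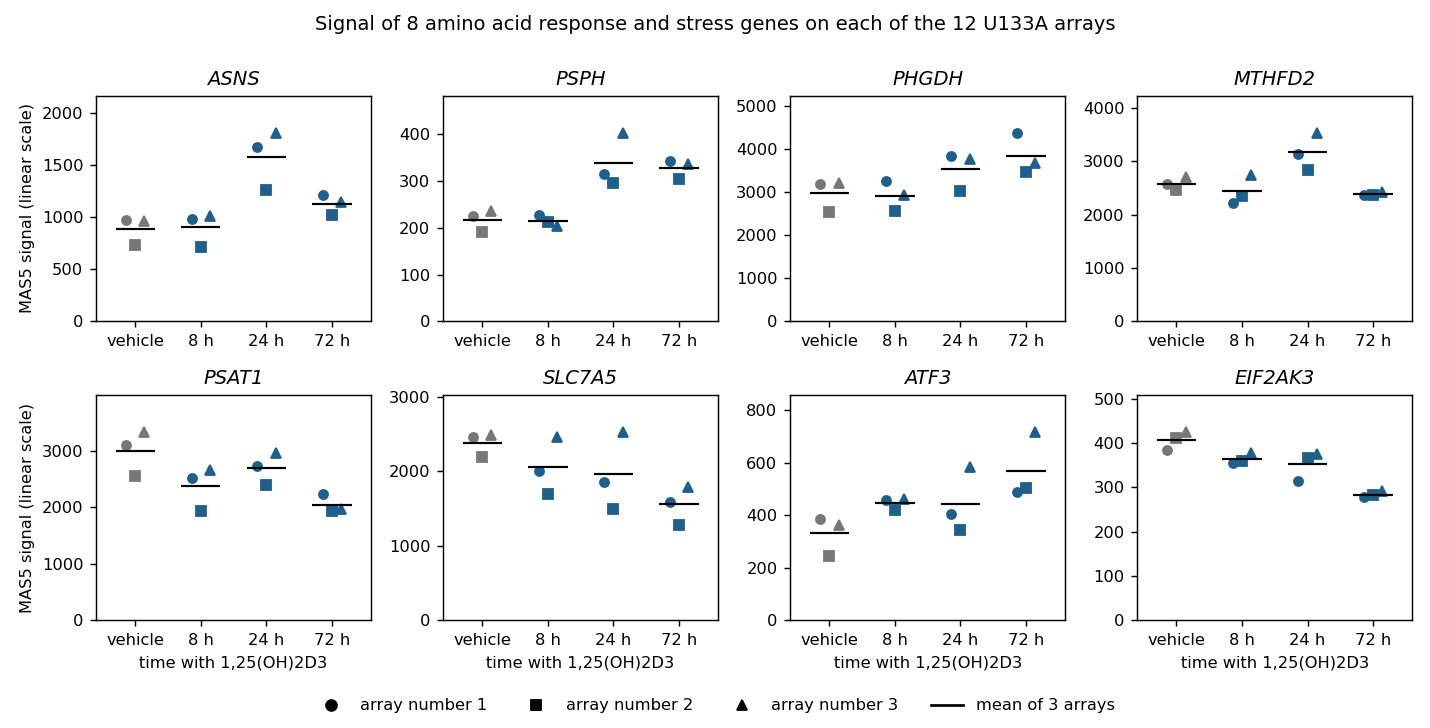
MAS5 signal (linear, vertical axis from 0) of 8 genes on each of the 12 U133A arrays by time (horizontal axis), with symbols for the array number and a bar for the mean of 3. The ASNS points at 24 h (1265 to 1809) sit above all its others, PSPH is higher at 24 and 72 h, and SLC7A5, PSAT1 and EIF2AK3 are lowest at 72 h.

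Array number 2 gave the lowest of the 3 signals for ASNS, PHGDH, PSAT1 and SLC7A5 in each of the 4 groups, as the plot of signals by array shows. The mean level of the 6 enzymes, taken per array as the log2 difference from each gene's vehicle mean, was -0.19 to 0.11 in vehicle, -0.24 to -0.0054 at 8 h, 0.13 to 0.47 at 24 h and 0.00083 to 0.22 at 72 h. The 24 h arrays lay above the vehicle arrays by this measure. Same-number differences in ASNS at 24 h against vehicle were 0.77 to 0.89, positive in 3 of 3.

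Of the 3 amino acid transporter genes, SLC7A5 was lower at 72 h, and SLC3A2 and SLC7A11 did not pass at any time. SLC7A5 is the light chain of LAT1, which imports large neutral amino acids. Its signal was 2466, 2186 and 2493 in vehicle, 2004, 1701 and 2459 at 8 h, 1856, 1498 and 2523 at 24 h, and 1593, 1286 and 1788 at 72 h. The 72 h arrays were all below the vehicle arrays, with some overlap at 8 and 24 h. The mean was 1556 ± 253 at 72 h, against 2382 ± 170 in vehicle (SD, n = 3 each), a log2 change of -0.62 ± 0.17 (SE, limma adjusted p = 0.042). The call was lost with median centring, with no filter or a weaker one, without the variance trend, and without any vehicle array, 8 h array 1, 24 h array 1 or 72 h array 1 or 2 (highest adjusted p 0.15).

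SLC3A2, the heavy chain that pairs with SLC7A5 and SLC7A11, differed by -0.08, 0.04 and -0.06 on the log2 scale. SLC7A11, the cystine and glutamate exchanger, had signals of 167, 209 and 199 in vehicle, 187, 195 and 217 at 8 h, 211, 187 and 168 at 24 h, and 132, 217 and 160 at 72 h. Its groups overlapped throughout, and its signals were close to the filter, which stood at 169.

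Among the 5 regulators of the ATF4 pathway, ATF3 was higher at 72 h, and ATF4, DDIT3, TRIB3 and PPP1R15A did not pass at any time. ATF3 is a stress-induced repressor and activator that ATF4 induces. Its signal was 387, 247 and 363 in vehicle, 458, 420 and 461 at 8 h, 407, 345 and 583 at 24 h, and 488, 506 and 716 at 72 h. The 8 h and 72 h arrays lay above all vehicle arrays, and the 24 h arrays overlapped with them. The log2 changes were 0.43 at 8 h (limma adjusted p = 0.78), 0.40 at 24 h (0.40) and 0.76 ± 0.20 (SE) at 72 h (0.034). At 72 h the mean was 570 ± 127, against 332 ± 75.1 in vehicle (SD, n = 3 each), a 1.69-fold difference with a 95% interval of 1.25 to 2.28. The 72 h call was lost with no filter, without the variance trend and without vehicle array 2 or 3 or 72 h array 3 (highest adjusted p 0.15).

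ATF4 itself, which is controlled mainly by translation, had signals of 4132, 4522 and 4628 in vehicle, 4985, 4015 and 3455 at 8 h, 4701, 4502 and 5320 at 24 h, and 4855, 4172 and 5151 at 72 h. Its groups overlapped at every time, with log2 changes of -0.11, 0.13 and 0.09. DDIT3 (CHOP), the stress factor linked to cell death, differed by 0.01, 0.06 and 0.25, and 1 array of 72 h at 693 stood above the other two at 396 and 427. TRIB3, a pseudokinase that restrains ATF4 signalling, had signals of 829, 725 and 957 in vehicle, 717.5, 591 and 779 at 8 h, 1014, 730 and 1107 at 24 h, and 666, 699 and 767 at 72 h. Its log2 changes were -0.26, 0.17 and -0.22 with overlapping groups. PPP1R15A (GADD34), which brings about dephosphorylation of eIF2, differed by -0.13, -0.16 and -0.05, and its dimmer probe set, below the filter at a mean of 56.2, gave 0.71 at 24 h.

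Of the 4 sensors of ER stress and their direct product, EIF2AK3 was lower at 72 h, and ERN1, ATF6 and XBP1 did not pass at any time. EIF2AK3 had signals of 385, 410 and 424 in vehicle, 356, 360 and 378 at 8 h, 315, 366 and 375 at 24 h, and 277, 284 and 291 at 72 h. All 9 treated arrays lay below all 3 vehicle arrays, and the 72 h arrays were the lowest. At 72 h the mean was 284 ± 6.72, against 406 ± 19.9 in vehicle (SD, n = 3 each), a 0.710-fold level with a 95% interval of 0.593 to 0.851. The log2 changes were -0.15, -0.20 and -0.49 ± 0.12 (SE), the last with limma's adjusted p = 0.022. It was lost without vehicle array 2 or 3 or 72 h array 1 (highest adjusted p 0.093).

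XBP1, the factor made from the RNA that IRE1 splices, had signals of 2086, 2290 and 2071 in vehicle, 2387, 2369 and 2226 at 8 h, 2192, 1660 and 2038 at 24 h, and 1889, 1921 and 1581 at 72 h. The 72 h arrays were below the vehicle arrays and the log2 change of -0.26 did not pass (limma adjusted p = 0.20). Spliced and unspliced XBP1 were not told apart here. ERN1 differed by 0.05, 0.14 and 0.19. ATF6 differed by 0.18, -0.26 and 0.09, while its other probe set, which failed the filter, gave 0.43, 0.51 and 0.81, so the 2 probe sets had opposite signs at 24 h and the same sign at 8 and 72 h.

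The plot of mean levels shows the 8 roles side by side on each array. For the transporters, all 72 h arrays (-0.36 to -0.23) lay below all vehicle arrays (-0.019 to 0.030), and for the disulfide isomerases all 72 h arrays (0.10 to 0.22) lay above them (-0.013 to 0.020). The isomerases' 24 h arrays lay just below vehicle (-0.079 to -0.020). At that time PDIA6 was lower (-0.41), while PDIA3 (0.13) and PDIA4 (0.14) were higher. The 72 h arrays also lay below the vehicle arrays for the sensors (-0.17 to -0.061, against -0.038 to 0.044) and for ER-associated degradation (-0.29 to -0.097, against -0.057 to 0.045). Of the sensors at 72 h, EIF2AK3 (-0.49) and XBP1 (-0.26) were lower, and ERN1 (0.19) and ATF6 (0.09) were higher. Of the transporters, SLC7A5 (-0.62) changed more than SLC7A11 (-0.18) and SLC3A2 (-0.06). The levels are means over 3 or 4 genes each and were given no test. How often such means over other genes separate from vehicle was not counted.

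**Figure D3:**
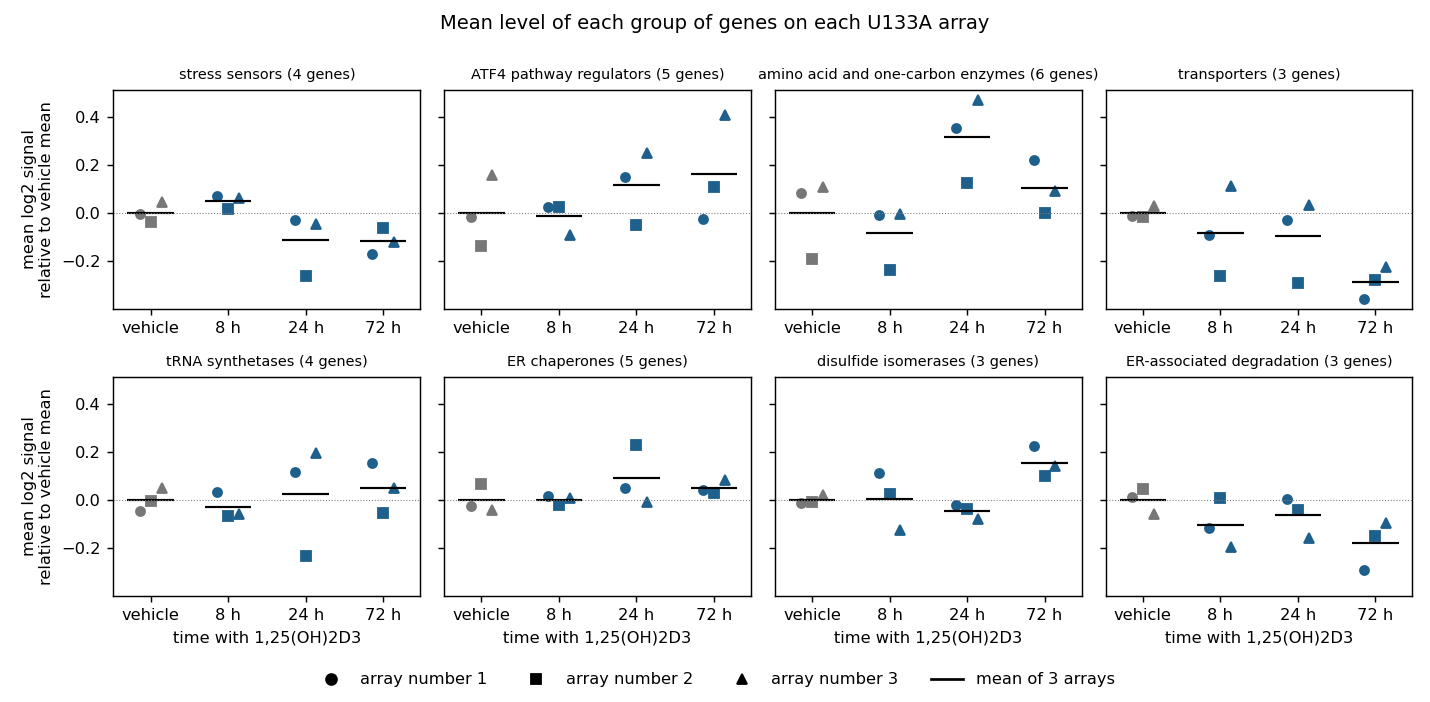
Mean log2 signal of each role's tested genes relative to the vehicle mean (vertical axis) on each of the 12 U133A arrays by time (horizontal axis), with symbols for the array number and a bar for the mean of 3. The enzyme points at 24 h (0.13 to 0.47) lie above vehicle, the transporter points at 72 h lie below it, and the synthetase and chaperone points scatter around 0.

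The tRNA synthetases, which charge transfer RNAs with amino acids and are raised by ATF4, did not pass at any time: limma called 0 of 4, AARS1, GARS1, WARS1 and SARS1. Of all genes limma called 0.724%, 2.47% and 3.86% higher at 8, 24 and 72 h, and 0.0557%, 1.62% and 2.98% lower. An unadjusted p under 0.05 was reached by 0 of 4 at 8, 24 or 72 h, against 6.38%, 14.4% and 20.1% of all genes. With 4 genes, 0 calls are near these shares. The 95% intervals of the fold change ran from 0.765 to 1.24 at 8 h, 0.794 to 1.26 at 24 h and 0.836 to 1.30 at 72 h across the 4 genes. AARS1 had signals of 1117, 1042 and 1189 in vehicle, 1110, 1169 and 1001 at 8 h, 1252, 1081 and 1270 at 24 h, and 1279, 1144 and 1077 at 72 h, and the groups overlapped. GARS1 had 2300, 2444 and 2567 in vehicle, 2489, 2044 and 2293 at 8 h, 2604, 1999.5 and 3059.5 at 24 h, and 2420, 2264 and 2783 at 72 h, also with overlap. Both genes have the response core TGATGNAA in a promoter window, as ASNS does.

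The ER chaperones, which bind unfolded proteins, did not pass either. Limma called 0 of 5, HSPA5, HSP90B1, CALR, CANX and DNAJB9, at each time, and at an unadjusted p under 0.05 HSP90B1 and CANX were higher at 24 h and none differed at 8 or 72 h. At that cut 6.38%, 14.4% and 20.1% of all genes differed at 8, 24 and 72 h, and limma's shares are those given for the synthetases. HSPA5, whose rise is the usual readout of the unfolded protein response, had signals of 7845, 9099 and 8149 in vehicle, 7298, 8755 and 8042 at 8 h, 8754, 8082 and 8180 at 24 h, and 8435, 8976 and 8057 at 72 h. Its groups overlapped, and its fold intervals were 0.845 to 1.09, 0.879 to 1.13 and 0.895 to 1.15 at the 3 times. CANX, calnexin, had 6224, 6364 and 6079 in vehicle, 6947, 6363 and 6952 at 8 h, 7535, 7935 and 6883 at 24 h, and 6593, 6765 and 6859 at 72 h. Its 24 h arrays lay above its vehicle arrays, with a log2 change of 0.26 (limma adjusted p = 0.075), and its other 2 probe sets gave 0.33 and 0.41. The call was made with the mean of its 3 probe sets (log2 change 0.33, limma adjusted p = 0.042) and with array weights (0.040). HSP90B1 (GRP94), the ER member of the HSP90 family, had 1838, 1880 and 1463 in vehicle, 1976, 1935 and 1731 at 8 h, 2237, 2193 and 1760 at 24 h, and 1872.5, 1988 and 1853 at 72 h. Its groups overlapped at each time, and its log2 changes were 0.13, 0.26 and 0.15. CALR differed by -0.09, 0.08 and -0.00024 and DNAJB9 by -0.09, -0.14 and -0.03.

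Among the 3 disulfide isomerases, which form and shuffle disulfide bonds in the ER, limma called 0 of 3 at each time. At an unadjusted p under 0.05, PDIA6 was lower at 24 h and PDIA4 higher at 72 h, times at which 14.4% and 20.1% of all genes differed at that cut. PDIA6 had signals of 5421, 5643 and 6258 in vehicle, 6224, 5615 and 4325 at 8 h, 4119, 4277 and 4591 at 24 h, and 6504, 5435 and 6733 at 72 h. The 24 h arrays were below the vehicle arrays, with a log2 change of -0.41 (limma adjusted p = 0.075). Its other 3 probe sets gave -0.33, 0.09 and -0.04 at 24 h, so the 2 brighter probe sets were lower by about as much and the 2 dimmer ones lay near 0. PDIA6 passed with quantile normalization (-0.46, limma adjusted p = 0.038), with array weights (0.039) and without 8 h array 3 (0.028). PDIA4 had 1928, 1837 and 2112 in vehicle, 2097, 1912 and 1926 at 8 h, 2265, 2247 and 1986 at 24 h, and 2492, 2245 and 2443 at 72 h. Its 72 h arrays were all above its vehicle arrays, at a log2 change of 0.29 (limma adjusted p = 0.078). PDIA3 differed by 0.11, 0.13 and 0.08.

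**Figure D4:**
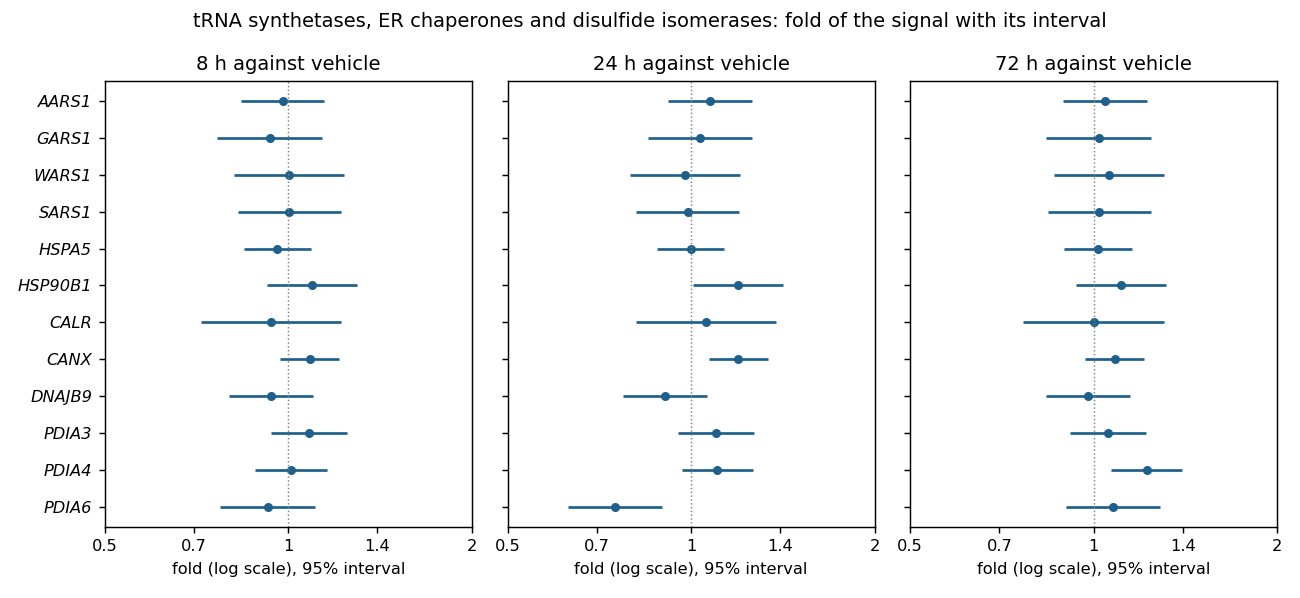
Fold of the signal against vehicle with its 95% interval (horizontal axis, log scale) for 4 tRNA synthetases, 5 ER chaperones and 3 disulfide isomerases (rows) at 8, 24 and 72 h (panels). All intervals cross 1 except those of HSP90B1, CANX and PDIA6 at 24 h and PDIA4 at 72 h.

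The 3 genes of ER-associated degradation did not pass at any time, and SEL1L alone had an unadjusted p under 0.05, at 72 h, as did 20.1% of all genes. SEL1L, which holds the HRD1 ubiquitin ligase complex, had signals of 931, 1032 and 1021 in vehicle, 1045, 938 and 1050 at 8 h, 1082, 1190 and 914 at 24 h, and 758, 801 and 858.5 at 72 h. The 72 h arrays were the lowest 3, at a log2 change of -0.30 (limma adjusted p = 0.13). Its other 3 probe sets gave 0.06, -0.20 and 0.02 at 72 h, in order of falling signal. HERPUD1, an ER membrane protein of the same complex, had 1041, 811 and 720 in vehicle, 728, 778 and 506 at 8 h, 704, 723 and 901 at 24 h, and 641, 887 and 801 at 72 h, and the groups overlapped. EDEM1, which directs misfolded glycoproteins to degradation, differed by 0.02, -0.15 and -0.10.

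The differences between times were tested in the same fit. ASNS was higher at 24 h than at 8 h by 0.80 ± 0.16 (SE, limma adjusted p = 0.034), 1 of 33 members against 0.348% of all genes higher and 0.251% lower in that comparison. The same-number differences were 0.76 to 0.83. Array numbers pair the arrays of 8 and 24 h and of 24 and 72 h by the deviations they share, and with the number as a block ASNS had an adjusted p of 7.56e-04. With that block MTHFD2 also passed at 24 h against 8 h (log2 change 0.38, adjusted p 0.043, against 0.14 without the block), which made 2 members. Without the block the ASNS call at 24 h against 8 h was lost with median centring, no filter, no variance trend, or any 8 h array or 24 h array 1 or 3 left out (highest adjusted p 0.17). Leaving out the same arrays gave 7 to 15 genes higher and 4 to 10 lower among all genes, against 25 and 18.

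At 72 h against 24 h, limma called 0 of 33 members, against 0.0836% of all genes in each direction. At an unadjusted p under 0.05, 1 was higher and 6 lower, 21.2% of the members against 11.7% of all genes. ASNS was lower by this comparison at -0.47, with same-number differences of -0.65 to -0.30, and passed with the number as a block (adjusted p 0.049, against 0.28 without it). PDIA6 differed by 0.52 (limma adjusted p = 0.13) and MTHFD2 by -0.40 (0.15). At 72 h against 8 h limma called 0 of 33, against 1.37% of all genes higher and 1.13% lower. These all-gene counts moved with single arrays. At 72 h against 24 h they were 6 higher and 6 lower, and 2 to 5 and 2 to 9 with each of the 12 arrays left out. At 72 h against 8 h they were 98 and 81, and they were 79 and 50 without 8 h array 1, 65 and 43 without 8 h array 2, 65 and 39 without 8 h array 3, and 62 and 57 without 72 h array 1. At an unadjusted p under 0.05, 3 were higher and 4 lower, 21.2% of the members against 14.1% of all genes.

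Outside the 35 genes, 174 genes of the same pathways were read as 8 lists, of which 118 were tested: 1 was higher at 8 h, 3 were higher at 24 h, and 4 were higher and 3 lower at 72 h. These are 0.847% higher at 8 h, 2.54% higher at 24 h, and 3.39% higher and 2.54% lower at 72 h, against 0.724%, 2.47%, 3.86% and 2.98% of all genes, so the lists as a whole stood near the background. In the list of other ATF4 and amino acid response genes, with 17 tested, CEBPB, DDIT4 and CHAC1 were higher and GOT1 lower. By time, 1 of the 17 was higher at 8 h, 3 at 24 h, and 2 higher and 1 lower at 72 h. At an unadjusted p under 0.05, 23.5%, 23.5% and 29.4% of this list differed at 8, 24 and 72 h. The shares of all genes were 6.38%, 14.4% and 20.1%. CEBPB, a partner of ATF4, had 8379, 8022 and 7582 in vehicle, 13253, 14292 and 14605 at 8 h, 15216, 14054 and 15081 at 24 h, and 15424, 12923 and 11384 at 72 h, with no overlap between any treated group and vehicle. Its log2 changes were 0.81, 0.89 and 0.72 (limma adjusted p = 1.90e-04, 2.99e-05 and 1.74e-04). DDIT4 (REDD1), an inhibitor of mTORC1, had 1009, 865 and 964 in vehicle, 1276, 1150 and 1148 at 8 h, 1827, 1625 and 1748 at 24 h, and 2461, 2088 and 1670 at 72 h. All its treated arrays were above vehicle, and the log2 changes were 0.33, 0.86 and 1.10 (limma adjusted p = 0.48, 5.13e-04 and 3.10e-05).

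CHAC1, which degrades glutathione, differed by 0.72, 1.13 and 0.98, and passed at 24 h alone (limma adjusted p = 0.044). Its signals were 379, 304 and 616 at 24 h, against 296, 176 and 110 in vehicle, and the call was lost in 13 of 22 alternatives. GOT1, cytosolic aspartate aminotransferase, was lower at 72 h, with a log2 change of -0.41 (limma adjusted p = 0.028, lost in 6 of 22). CREB3, an ER-anchored transcription factor related to ATF6, was higher by 0.58 at 72 h (limma adjusted p = 0.0073) and kept its call under all 22 alternatives. P4HB, a further disulfide isomerase, was higher by 0.28 at 72 h (limma adjusted p = 0.040, lost in 15 of 22). EIF2B1, a subunit of the exchange factor for eIF2, was at -0.32 (0.041, lost in 12) and YARS2, mitochondrial tyrosyl-tRNA synthetase, at -0.49 (0.048, lost in 15). With each of the 12 arrays left out in turn, the CHAC1 call held only without vehicle array 1, 24 h array 2 or 72 h array 2 (highest adjusted p 0.21), that of P4HB only without 8 h array 1, 24 h array 2 or 72 h array 2 (0.15), that of EIF2B1 only without 8 h array 2 or 3 or 24 h array 2 (0.16), and that of YARS2 only without 24 h array 1 or 3 (0.16). The GOT1 call was lost without any vehicle array or 72 h array 1 or 3 (0.12).

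Limma called 0 of 13 other cytosolic tRNA synthetases at each time. At an unadjusted p under 0.05, 0, 2 and 1 of them were higher at 8, 24 and 72 h and none was lower. Their median log2 changes were 0.06, 0.11 and -0.09. Limma also called 0 of 23 other genes of degradation and translocation, with 2, 1 and 3 at an unadjusted p under 0.05. Of 13 heat shock proteins of other compartments it called 0, with none at that cut. The shares of all genes at that cut were 6.38%, 14.4% and 20.1%. Of 12 genes of eIF2 kinases and eIF2 control, EIF2B1 alone passed by limma. At the unadjusted cut 0%, 16.7% and 41.7% of the 12 differed, 1 higher and 4 lower at 72 h. Their median log2 change at 72 h was -0.18, against -0.014 for all genes. Of the 19 other ER folding genes, P4HB alone passed, and their medians were 0.05, 0.08 and 0.07.

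The U95 arrays gave a value for 29 of the 33 tested genes, with 1 array per time and therefore no test. The sign of the change from vehicle was the same as on U133A for 14 of 29 at 8 h, 15 at 24 h and 19 at 72 h, or 48.3%, 51.7% and 65.5%. Over 5141 genes on both array types the shares were 57.2%, 59.7% and 63.7%. ASNS had 1198 in vehicle, 1182 at 8 h, 1555 at 24 h and 1423 at 72 h, changes of -0.02, 0.37 and 0.25 on the log2 scale, and was highest at 24 h on both types. SLC7A5 was below vehicle at all 3 times (-0.25, -0.14 and -0.43). PSPH (-0.33, -0.06 and -0.09) and MTHFD2 (-0.12, -0.22 and -0.26) were below vehicle throughout, opposite to their U133A values at 24 h for both genes and at 72 h for PSPH. ATF3 had U95 signals of only 51.5 to 73.3 and gave 0.21, -0.21 and -0.07, so its change was positive at 8 h alone and opposite to U133A at 24 and 72 h. HSPA5 differed by 0.04, 0.24 and 0.18, PHGDH by 0.17, 0.06 and 0.29, and PDIA6 by 0.53, 0.64 and 0.37, the last opposite to U133A at 8 and 24 h. PSAT1 and EIF2AK3 had no U95 value here.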

How the data were processed

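Messenger RNA of OVCAR3 cells was measured on Affymetrix arrays, and all 16 arrays were matched to their labels. Each deposited value is a probe set's intensity, computed by the authors with MAS5 (version not stated) per the submitters' processing notes. The scale is linear, and the authors' scaling to a trimmed mean of about 500 was read from the values, since no note records it. Precision is limited by how many arrays there are.

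The values were used as deposited. Probe sets were named with the platform annotation and RefSeq (GRCh38.p14), which gave 19071 one-gene probe sets of 22283, and 10961 of 12626 on U95. Signals were transformed as log2(signal + 15.8), the 10th percentile of all U133A values (13.9 for U95), so fold changes of dim genes are understated. Genes under the 40th percentile of mean log2 signal, a signal of 169, were left out. In R 4.3.3, 1 model with a term per group was fitted to the 12 U133A arrays with limma 3.58.1 (eBayes with trend, 8 residual degrees of freedom), and p-values were adjusted by Benjamini-Hochberg over all 7178 genes. The comparisons against vehicle share the 3 vehicle arrays. The script was tested on simulated data, with 50 genes changed by each of 4 sizes at 24 h against vehicle. It recovered 38% of log2 changes of 0.5, 74% of 0.8, 86% of 1 and 100% of 2. A gene that did not pass may therefore still have changed by about 0.5.

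The members, lists and tests were chosen with earlier results of these data known. The signals of every member past the threshold, with or without the array number as a block, are given in full. So are those of the 2 members of each role with the lowest F-test p. The other tested members are given by their changes. Of the other pathway lists, up to 4 genes per list past the threshold were named by lowest F-test p. HSPA5, ATF4, DDIT3 and SHMT2 were described outside this rule for their known roles, after their values were seen. The most and least expressed members were not named, because signals of different probe sets are not on one scale. Promoter motifs were searched on both strands.

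Same-number arrays deviated together from their group means: all 18 same-number correlations were positive (0.0547 to 0.264, against -0.170 to 0.0652 for other numbers). In all 3 pairs they were over 0.1 for 8 and 24 h (0.111 to 0.155) and for 24 and 72 h (0.105 to 0.188), so the block is given beside those comparisons. Alternatives were other scalings, pseudocounts, filters, probe set and variance choices, the replicate block, and each array left out.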

Additional observations from a re-analysis of the deposited data

Results flagged for a closer look

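ASNS was flagged because its change from vehicle differed between times: it was 0.01 on the log2 scale at 8 h and 0.81 at 24 h, and the difference itself, 0.80, passed limma's test with an adjusted p of 0.034. That call was lost in 8 of 22 alternatives, among them any 8 h array left out (highest limma adjusted p 0.17). The 3 same-number differences were 0.76 to 0.83. It was the one member whose change differed between 2 times by that test without a replicate block.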

How the results depend on the processing

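The number of members higher at 24 h (2) was 1 with no filter or a 20th percentile filter, and 1 to 2 with each array left out. With array weights CANX passed beside ASNS and PSPH. With probe sets averaged per gene CANX passed and PSPH did not. Some smaller changes of the counts are not listed here. The number lower at 24 h (0) was 1, PDIA6, with quantile normalization or array weights, and 0 to 1 with an array left out. Higher at 72 h (2), it was 0 with no filter, 1 with probe sets averaged per gene, 1 without the variance trend, 4 with the replicate block (ATF3, PHGDH, PSPH and ASNS), and 0 to 2 with an array left out. Lower at 72 h (3), it was 1 with median centring (EIF2AK3), and 0 to 3 with an array left out. SLC7A5 was not among the lower members at 72 h with no filter, a 20th percentile filter or no variance trend. At 24 h against 8 h (1) the number was 0 with median centring, no filter or no trend, and 2 with the replicate block. It was 0 to 1 with an array left out. At 72 h against 24 h (0) it was 1 with the replicate block. At 72 h against 8 h (0) it was 1 without trend (PSPH), 3 with the replicate block (PHGDH, PSPH and SLC7A5), and 0 to 1 with an array left out (XBP1 without 24 h array 2). At any time (2) it was 1 with no filter or averaged probe sets, 7 with the replicate block, and 0 to 3 with an array left out. How many of all genes passed the F test with the block was not counted, so the 7 have no background share. The members' counts at 8 h were 0 throughout. With the replicate block, adjusted p at 72 h against vehicle was 0.0080 for PHGDH and 0.033 for ASNS. In comparisons with vehicle the numbers pair the arrays only as a hint from the data, where 1 or 2 of 3 pairs were over 0.1, although all 12 arrays correlated best with their own number. Of the values of single genes under these alternatives, 3031 stayed on their side of the threshold, 116 lost a call and 21 gained one. Of those with a call in either fit, 0 changed sign. Changes of sign among values without a call in either fit were not counted. Among all genes the number lower at 24 h was 71 with median centring, 188 with the replicate block and 201 with array weights, against 116. At 72 h against vehicle the block gave 364 genes higher and 293 lower, against 277 and 214 without it. The number lower at 8 h was 7 to 16 with the block, array weights, no trend, averaged probe sets or the larger pseudocount, against 4. With the block 55 genes were higher and 36 lower at 24 h against 8 h, 14 and 13 at 72 h against 24 h, and 165 and 128 at 72 h against 8 h, against 25 and 18, 6 and 6, and 98 and 81 without it. At 24 h against 8 h it was 39 and 31 with array weights, 16 and 7 with no filter, and 15 and 12 without trend. The cause of these differences was not tested. Dim genes such as ATF6, SLC7A11 and DNAJC3 are limited by signal over background.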

Other observations

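DNAJC3, a co-chaperone of BiP that also inhibits PERK, was too dim to test: its signals were 19.0, 23.2 and 10.6 in vehicle, 33.2, 28.0 and 62.1 at 8 h, 54.8, 10.4 and 74.3 at 24 h, and 18.2, 33.5 and 9.7 at 72 h. The 8 h arrays all lay above the vehicle arrays, and the 24 h and 72 h arrays overlapped with them. On U95 its signal was 10.6 in vehicle and 7.61, 24.4 and 29.3 at 8, 24 and 72 h.

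SEL1L and ATF4 differed between the array types. On U95, SEL1L had 256 in vehicle and 111, 103 and 117 at 8, 24 and 72 h, log2 changes of -1.11, -1.21 and -1.05, against 0.02, 0.09 and -0.30 on U133A. ATF4 on U95 had 2732 in vehicle and 4418, 3143 and 4068 at 8, 24 and 72 h, changes of 0.69, 0.20 and 0.57, against -0.11, 0.13 and 0.09 on U133A. DDIT3 was above vehicle on U95 at all 3 times (0.38, 0.44 and 0.50). Each U95 value comes from 1 array.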
